A study of Mus musculus with 6 samples.

Results

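The 9 genes described here encode the enzymes of the hepatic methionine cycle and of the branches that leave it, namely Mat1a, Mat2a, Gnmt, Bhmt, Cbs, Cth, Ahcy, Pemt and Nnmt. They were chosen by symbol from the 20140 genes of the deposited count table, and all 9 passed the filter on low counts that left 16370 genes for testing. RNA came from 6 mouse livers on day 21, with 2 livers in each of 3 groups. The sham mice are labelled control, with PBS entered where the other groups have their cell line. The premetastatic niche (PMN) mice (labelled intra-C) and the metastasis mice (labelled intra-S) carried CT26 cells, a mouse colorectal carcinoma line. The labels do not spell out these codes, so the routes were read from the models of the study's methods, cecal implantation for PMN and injection into the spleen for metastasis. The study describes both models in BALB/c, and gives an age of 6 to 10 weeks for its tumor models as a whole. The labels name no strain, and no allele, transgene or drug is given for any of the 3 groups. The age and sex of single mice are not given. Against sham, the tumor cells and the procedure that placed them changed together, so their parts cannot be told apart. Between PMN and metastasis mice the cell line was the same, whereas the route differed and, by the study's methods, fewer cells went into the spleen. The labels name whole liver and all of its cells, and tumor cells in a metastasis liver carry the same mouse genome. In such bulk tissue, fewer cells of a type and less RNA per cell cannot be told apart. No source says more of the replicates than that they are separate samples, so the p-values measure the spread between these 6 livers.

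Methionine is activated to S-adenosylmethionine, the methyl donor of most cellular methylation, by methionine adenosyltransferases. Mat1a encodes the form of the adult hepatocyte and Mat2a the form of most other and of dividing cells. Methyltransferases such as Gnmt, Pemt and Nnmt then use the donor and release S-adenosylhomocysteine, which Ahcy hydrolyses to homocysteine. Homocysteine is either methylated back to methionine, in liver partly by Bhmt with betaine as donor, or drained through Cbs and Cth to cysteine, the transsulfuration route. The liver carries most of the body's methionine turnover.

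In the GENCODE annotation of GRCm38 (mm10), the build to which the authors aligned, Mat1a lies at chr14:41105035-41124412 on the plus strand. The other members lie on the minus strand, namely Mat2a at chr6:72432799-72439558, Gnmt at chr17:46725664-46729168, Bhmt at chr13:93616675-93637961, Cbs at chr17:31608894-31637238, Cth at chr3:157894248-157925077, Ahcy at chr2:155059310-155074497, Pemt at chr11:59970614-60046489 and Nnmt at chr9:48591877-48605153. Whether the counting used strand is not given in the sources used here. Mat2a shares 508 of its exonic bases (11.3%) with Particl on the opposite strand, which had 234 counts over all 6 livers.

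The counts of Ahcy and Bhmt are uncertain because each gene has a near-identical copy elsewhere in the genome. Gm4737, an Ahcy copy at chr16:46152985-46155077 on the minus strand, differs from Ahcy at 4 of 1296 coding bases (99.7% identity), and 80.5% of all stretches of 100 coding bases are the same in both. The substitutions are C459T, G474A, C1050T and C1068T, counted from the first coding base with the base of Ahcy first. The sequences around these positions are shown because they are the coding bases that can assign a read to one gene or the other, with the differing bases in capitals (GENCODE transcripts, coding bases 436 to 495 and then 1029 to 1088).
Ahcy: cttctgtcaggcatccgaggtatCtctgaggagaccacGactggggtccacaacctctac
Gm4737: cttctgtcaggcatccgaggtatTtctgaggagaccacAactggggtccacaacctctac
Ahcy: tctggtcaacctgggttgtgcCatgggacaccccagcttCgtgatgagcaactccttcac
Gm4737: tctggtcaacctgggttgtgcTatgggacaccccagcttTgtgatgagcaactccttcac
The authors counted uniquely aligned reads. How reads that fit both copies were placed was not tested. Bhmt differs from Gm5096 at 4 of 1221 coding bases as well (99.7% identity), and 70.0% of its stretches of 100 coding bases are the same in Gm5096. Bhmt held the larger part of that pair, with Gm5096 at 5.64% to 7.19% of the Bhmt count in each liver. A search of the coding sequences of all 9 members found further copies listed in the count table only for Ahcy, Bhmt and Mat2a. Among these, Gm9826 had 1.07% of the count of Ahcy, Bhmt-ps1 0.13% of that of Bhmt and Gm9523 0.43% of that of Mat2a, whereas the more distant paralog Bhmt2 (78.8% identity over 774 bases) had 5.59% of that of Bhmt.

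The libraries held 32838321 to 43368309 counts, and every member was far above the limit of 3 counts (0.0679 to 0.0928 CPM) that a count of 0 allows for counting error alone. CPM denotes the count scaled to a common library total after TMM scaling of the library total, with factors of 0.884 to 1.14. Metastasis liver 1 stood apart for these genes. The 9 members together took 2.12% of its counts and between 0.720% and 1.05% of those of the other 5 livers. Between the 2 metastasis livers, 4 of 9 members differed more than 2-fold, compared with 26.8% of all tested genes, whereas 1 member did so between the PMN livers (13.1% of all genes) and 0 between the sham livers (8.75%). The fold changes of the members in metastasis against sham are therefore given with and without this liver. The hepatocyte marker list was present in all livers, with 24 of 25 genes listed, each of them at 1 CPM or more in the sham livers.

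**Figure D1:**
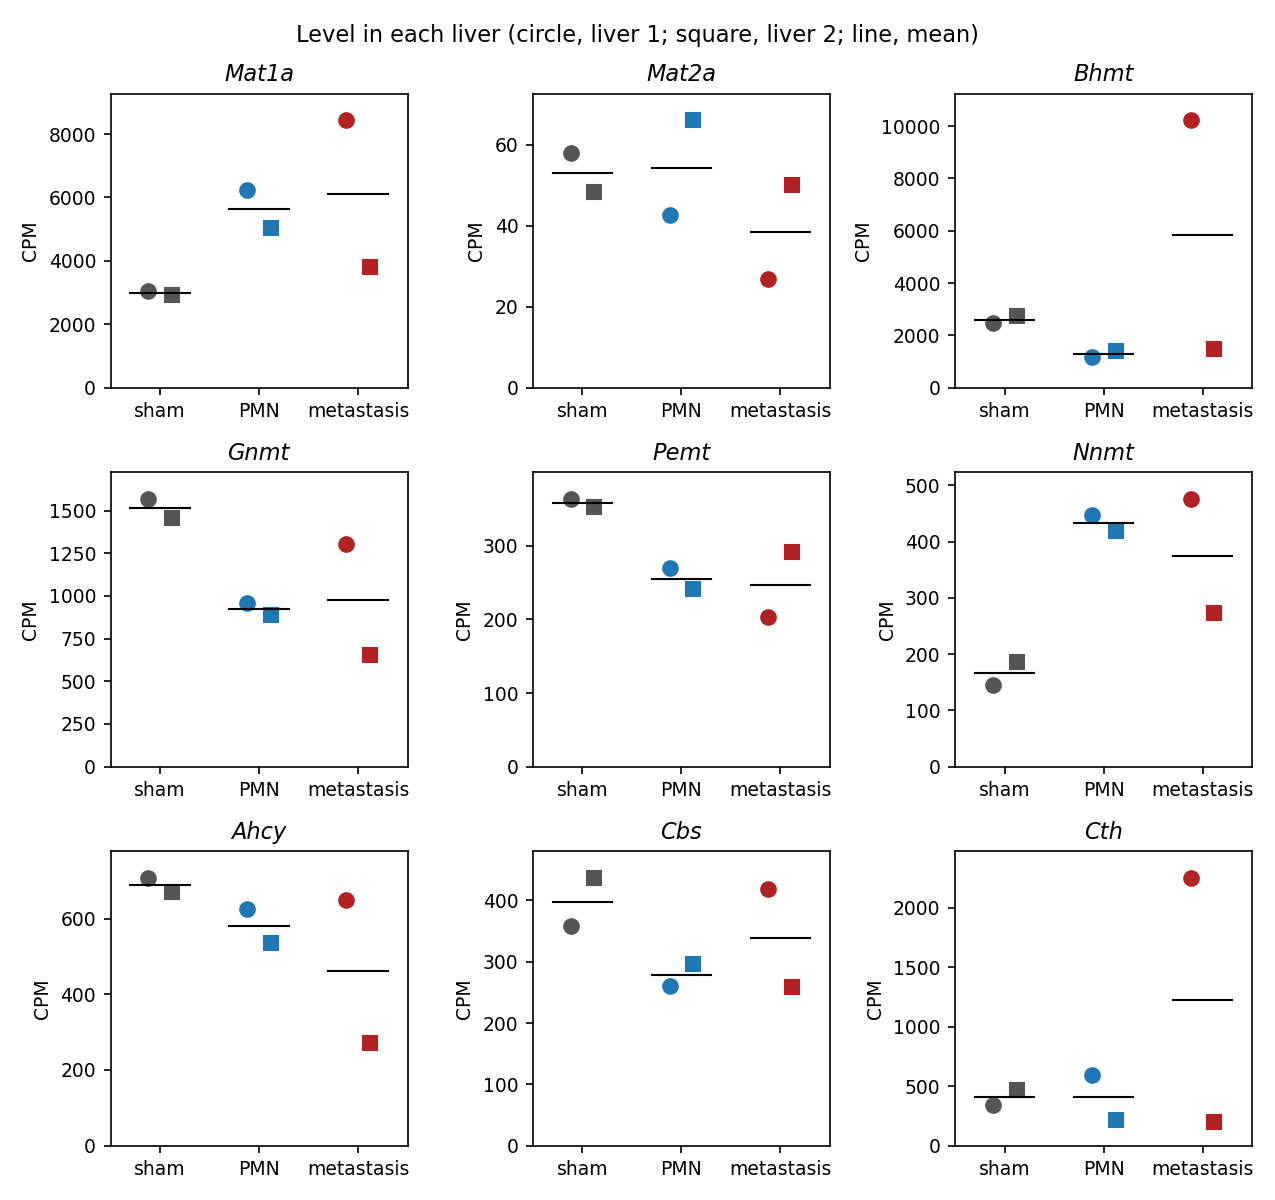
Level of each member in each liver in CPM, on axes that start at 0. Circles are liver 1, squares liver 2 and lines the mean of the 2 livers. Bhmt and Cth of metastasis liver 1, at 10223 and 2247 CPM, lie far above every other liver.

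Per gene length, Bhmt, Mat1a and Gnmt were the most abundant members. Their mean over the 6 livers was 3026 TPM for Bhmt, 2742 TPM for Mat1a and 2159.9 TPM for Gnmt, as deposited by the authors, a unit that corrects for gene length. Cth followed with 709.9 TPM, Ahcy with 462 TPM, Pemt with 449 TPM, Cbs with 249.5 TPM and Nnmt with 192 TPM. Mat2a was lowest with 14.7 TPM. This order rests in part on metastasis liver 1, since over the other 5 livers the mean of Bhmt was 1887 TPM, below Mat1a (2441 TPM) and Gnmt (2165 TPM), and that of Cth was 415 TPM, below Pemt (485 TPM) and Ahcy (464 TPM). In the sham livers the order was Gnmt (3153 ± 165 TPM, SD, n = 2), Bhmt (2823 ± 189), Mat1a (1909 ± 66.8), Pemt (615 ± 13.5), Ahcy (609 ± 23.3), Cth (501 ± 104), Cbs (325 ± 44.8), Nnmt (113 ± 19.4) and Mat2a (17.6 ± 2.30). In this order only Pemt and Ahcy overlapped between neighbors over the sham livers.

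The first comparison asked what changed in the liver while a tumor grew in the cecum. In the PMN livers Nnmt was higher than in sham, Mat1a had the next largest ratio upward, and Bhmt, Gnmt, Cbs, Pemt and Ahcy had lower levels in both PMN livers than in either sham liver. Of the 9 members, 1 was called higher and 0 lower with edgeR's quasi-likelihood test over all 6 livers (Benjamini-Hochberg adjusted p under 0.05), against 4.92% and 2.38% of all tested genes. The groups did not overlap for 7 of 9 members, against 68.4% of all tested genes. The 2 metastasis livers enter this test through the estimate of the spread. When PMN and sham were fitted alone, 2 of 9 members were called higher (Nnmt and Mat1a) and 4 lower (Bhmt, Gnmt, Cbs and Pemt), against 16.3% and 14.2% of all genes.

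Nnmt, which methylates nicotinamide with S-adenosylmethionine and thereby drains both methyl groups and the NAD precursor, measured 146 and 186 CPM in sham, 447 and 419 CPM in PMN, and 475 and 273 CPM in metastasis. All 4 livers from the PMN and metastasis groups lay above both sham livers. Its mean rose 2.61-fold in PMN (166 ± 28.8 to 433 ± 19.8 CPM, SD, n = 2 per group). On the log2 scale this was 1.38 with a standard error of 0.31 (edgeR adjusted p = 0.0499). This call sat at the threshold. It was kept with DESeq2 (adjusted p = 0.00121) and with PMN and sham alone (0.00206), and lost on library size without TMM (0.0601), on log2(TPM + 1) (0.0552) and with the replicate number as a block (0.0685). It was also lost without sham liver 1, sham liver 2, PMN liver 1 or PMN liver 2, with log2 fold changes of 1.22 to 1.57. Those fits leave 1 liver in a group and called few or no genes at all, so this loss does not single out Nnmt. The call was kept without either metastasis liver, with a log2 fold change of 1.39 in both.

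Of the donor-making enzymes, Mat1a had 3049 and 2909 CPM in sham and 6240.2 and 5035 CPM in PMN. Both PMN livers were above both sham livers, by 1.89-fold on the means. The log2 fold change was 0.92 (95% confidence interval -0.01 to 1.85, adjusted p = 0.190 from edgeR), and 0.92 with an adjusted p of 0.00557 when only PMN and sham livers were fitted. Mat2a had 57.9 and 48.3 CPM in sham and 42.6 and 66.1 CPM in PMN livers. The PMN livers enclosed the sham livers, and its interval of -0.82 to 0.89 does not show that the level stayed the same.

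Gnmt, the glycine methyltransferase that disposes of excess methyl donor, had 1566 and 1458 CPM in sham and 957 and 886 CPM in PMN livers. The log2 fold change was -0.71 (interval -1.53 to 0.10, adjusted p = 0.233 from edgeR; 0.00737 with PMN and sham alone). Pemt, which methylates phosphatidylethanolamine to phosphatidylcholine, had 363 and 353 CPM in sham and 269.6 and 242 CPM in PMN livers. Its log2 fold change was -0.49 (interval -1.06 to 0.09, adjusted p = 0.249 from edgeR; 0.0276 with PMN and sham alone). For both methyltransferases the highest PMN liver was below the lowest sham liver.

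Bhmt, the betaine-dependent remethylating enzyme, had 2475 and 2728 CPM in sham and 1170.4 and 1389 CPM in PMN livers. The sham mean was 2.03-fold the PMN mean. The log2 fold change was -1.02 with a wide interval of -2.86 to 0.82 and a standard error of 0.77 (adjusted p = 0.437 from edgeR). With PMN and sham alone the standard error was 0.14 and the adjusted p 0.00380. Gm5096, the near-identical copy, had 163 and 167 CPM in sham and 81.3 and 99.8 CPM in PMN livers, the same order as Bhmt.

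In transsulfuration, Cbs, which joins homocysteine to serine, had 358 and 436 CPM in sham and 261 and 297 CPM in PMN livers. Its log2 fold change was -0.51 (interval -1.19 to 0.17, adjusted p = 0.300 from edgeR; 0.0437 with PMN and sham alone). Cth, which cleaves cystathionine to cysteine, had 346 and 466 CPM in sham and 596 and 216 CPM in PMN livers. The PMN livers lay on either side of the sham livers and differed 2.76-fold from each other, so that the log2 fold change of 0.00 had an interval of -2.39 to 2.39.

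Ahcy had 706 and 671 CPM in sham and 626 and 535 CPM in PMN livers, a log2 fold change of -0.25 (interval -1.20 to 0.71, adjusted p = 0.734 from edgeR). Ahcy and Gm4737 summed to 2305 and 2235 CPM in sham and 1879 and 1530.1 CPM in PMN livers. The sum had a log2 fold change of -0.41 (adjusted p = 0.590), so neither Ahcy nor the sum was called. Gm4737 held the larger part of the reads in every liver, between 65.0% and 71.6% of the sum.

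**Figure D2:**
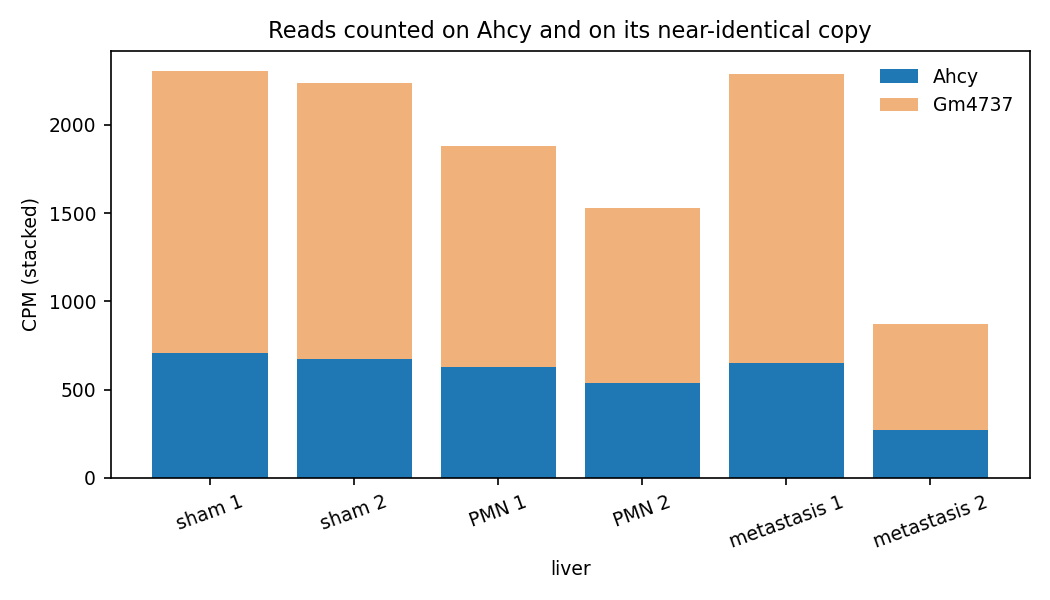
Reads counted on Ahcy (lower bar) and on its near-identical copy Gm4737 (upper bar) in each liver, stacked, in CPM. The sum is lowest in metastasis liver 2 at 871 CPM, and the share of Gm4737 stays between 65.0% and 71.6%.

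The second comparison asked what changed in livers 21 days after injection of CT26 cells into the spleen. None of the 9 members was called higher or lower than in sham by edgeR over all 6 livers, against 6.78% and 3.95% of all tested genes. At an unadjusted p under 0.05 there were 2 of 9 members (Nnmt and Mat1a), against 30.2% of all tested genes. DESeq2 called 1 of 9 higher (Nnmt, adjusted p = 0.00744), against 11.5% of all genes. The groups did not overlap for 5 of 9 members, against 60.4% of all tested genes. The 2 metastasis livers differed from each other in different members and in different directions, and the values below follow that split.

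Nnmt had 475 and 273 CPM against 146 and 186 CPM in sham, both above sham. Its log2 fold change was 1.17 (standard error 0.31, adjusted p = 0.0614 from edgeR), 0.72 without metastasis liver 1 (0.0366) and 1.52 without metastasis liver 2 (0.00128). Mat1a had 8435 and 3813 CPM, both above sham as well. Its log2 fold change was 1.04 (interval 0.11 to 1.97, adjusted p = 0.134), 0.36 without metastasis liver 1 (0.170) and 1.50 without metastasis liver 2 (0.000736). These were the 2 members that were higher than sham in each of the 4 livers of tumor-bearing mice. The share of all genes that did so was not counted. In either direction, 68.4% of all tested genes did not overlap with sham in PMN and 60.4% in metastasis livers.

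Metastasis liver 1 had 10223 CPM of Bhmt and 2247 CPM of Cth, which is 3.93-fold and 5.54-fold the sham means. Metastasis liver 2 had 1467 CPM of Bhmt and 197 CPM of Cth, below both sham livers. The 2 livers differed 6.97-fold in Bhmt and 11.4-fold in Cth, so that means of 5845 ± 6191 and 1222 ± 1449.7 CPM (SD, n = 2) describe neither. The log2 fold change of Bhmt was 1.17 (adjusted p = 0.353 from edgeR), and 0.28 on log2(TPM + 1). It turned to -0.82 without metastasis liver 1 and was 1.98 without metastasis liver 2. For Cth the log2 fold change was 1.59 (adjusted p = 0.341 from edgeR), 0.43 on log2(TPM + 1) and 0.75 with the replicate number as a block. It was -1.04 without metastasis liver 1 and 2.47 without metastasis liver 2. Gm5096 followed Bhmt, with 652 CPM in metastasis liver 1 and 82.7 CPM in metastasis liver 2.

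Gnmt had 1302 and 653 CPM in the metastasis livers, and the sham mean was 2.31-fold that of metastasis liver 2. Ahcy had 649.6 and 272 CPM, and the sham mean was 2.53-fold that of metastasis liver 2. Ahcy and Gm4737 summed to 2291 and 871 CPM, with metastasis liver 1 within the sham range of 2235 to 2305 CPM. Cbs had 418 and 259 CPM, within and below the sham range of 358 to 436 CPM. Metastasis liver 2 was the lowest of the 6 livers in Gnmt, Ahcy, Cbs and Cth. Over all livers none of the 3 was called. The log2 fold change of Gnmt was -0.63 (adjusted p = 0.265 from edgeR), -1.21 without metastasis liver 1 (0.00273) and -0.21 without metastasis liver 2 (0.296). That of Ahcy was -0.58 (adjusted p = 0.373), -1.33 without metastasis liver 1 (0.00300) and -0.08 without metastasis liver 2 (0.728). That of Cbs was -0.23 (adjusted p = 0.622), -0.61 without metastasis liver 1 (0.0638) and 0.08 without metastasis liver 2 (0.783). In the fit without metastasis liver 1, 1 of 9 members was called higher (Nnmt) and 3 lower (Gnmt, Bhmt and Ahcy), against 9.58% and 6.93% of all genes.

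Pemt and Mat2a showed the opposite split. Pemt had 203 CPM in metastasis liver 1 and 292 CPM in metastasis liver 2, both below sham. Its log2 fold change was -0.53 (adjusted p = 0.193 from edgeR), -0.29 without metastasis liver 1 (0.247) and -0.82 without metastasis liver 2 (0.00899). Mat2a had 26.8 CPM in metastasis liver 1, the lowest of all livers, and 50.0 CPM in metastasis liver 2, within the sham range. Its log2 fold change was -0.47 (adjusted p = 0.421 from edgeR), -0.08 without metastasis liver 1 (0.871) and -0.99 without metastasis liver 2 (0.0369). In the fit without metastasis liver 2, 4 of 9 members were called higher (Mat1a, Bhmt, Cth and Nnmt) and 2 lower (Mat2a and Pemt), against 17.3% and 15.4% of all genes. A fit with 1 metastasis liver assumes that it varies like the livers of the other groups.

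**Figure D3:**
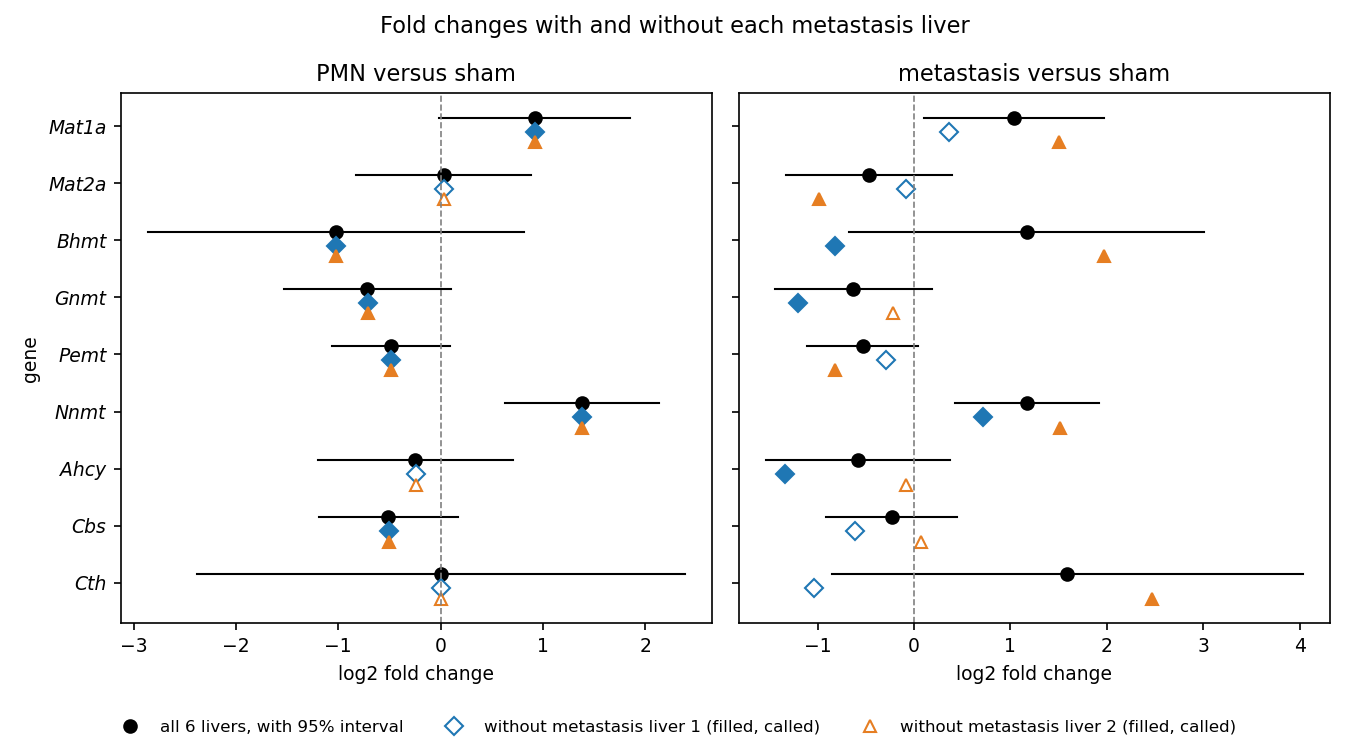
Log2 fold change of each member against sham, in PMN (left) and metastasis livers (right). Black points with 95% confidence intervals use all 6 livers, diamonds leave out metastasis liver 1 and triangles metastasis liver 2, filled where the adjusted p is under 0.05. In metastasis, Bhmt moves from 1.98 without liver 2 to -0.82 without liver 1, whereas Nnmt stays above 0.

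When metastasis and PMN livers were compared directly, 0 of 9 members were called higher and 0 lower by edgeR, as were 0% of all genes in either direction. DESeq2 called 0 members too, although it called 1.55% of all genes higher and 1.81% lower in metastasis than in PMN livers. At an unadjusted p under 0.05 there was 1 of 9 members, Bhmt, against 13.4% of all tested genes. Its log2 difference was 2.19 (interval 0.29 to 4.09, adjusted p = 0.341 from edgeR). Bhmt was also the only member whose metastasis livers both exceeded both PMN livers, against 43.3% of all genes without overlap, although metastasis liver 2 did so by little (1467 against 1389 CPM). Without metastasis liver 1 the difference of Bhmt was 0.20 (0.536). Without metastasis liver 2, 3 of 9 members were called higher (Bhmt, Cth and Mat1a), against 7.53% of all genes, so these calls rest on metastasis liver 1. The interval of Nnmt was -0.95 to 0.52 and that of Mat1a -0.81 to 1.04, which does not show that the groups were alike.

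The forms of methionine adenosyltransferase were compared within each liver as the ratio of Mat1a to Mat2a in TPM. The ratio was 102 and 116 in sham, 283 and 147 in PMN, and 609 and 147 in metastasis. All 4 livers of tumor-bearing mice were above both sham livers. An exact two-sided permutation test of the log2 ratio gave p = 0.333 against sham in both groups (n = 2 each), the smallest value that 2 against 2 livers allow. Between metastasis and PMN livers the groups overlapped (exact permutation p = 0.667). Within the PMN group and within the metastasis group, the liver with the higher ratio had the higher Mat1a and the lower Mat2a.

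**Figure D4:**
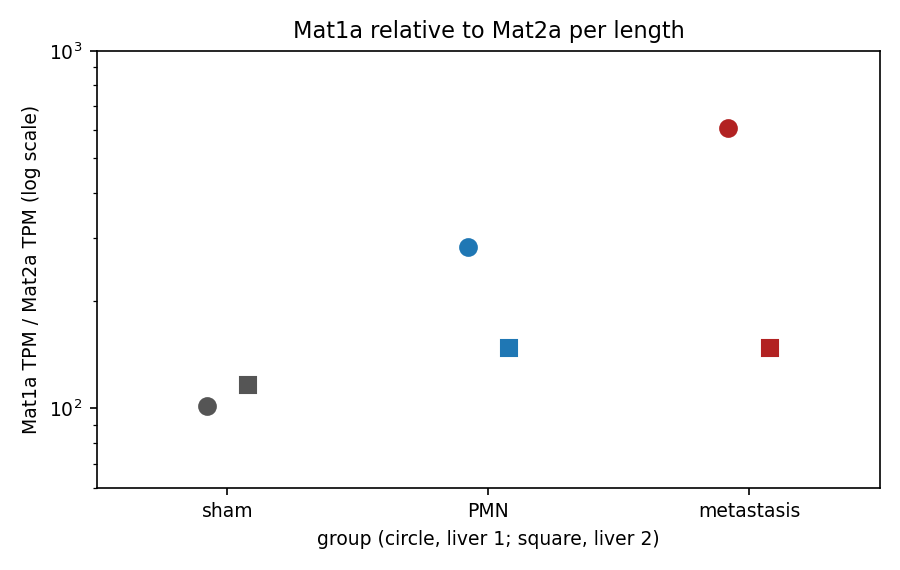
Ratio of Mat1a to Mat2a (TPM, log axis) in each liver. Circles are liver 1 and squares liver 2. Metastasis liver 1 stands at 609, and the other livers lie between 102 and 283.

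Of the neighboring pathways, 98 of 100 listed genes were tested. In PMN livers 1 was called higher and 5 lower, against 4.92% and 2.38% of all tested genes, with a median log2 fold change of -0.41, against a median of 0.01 over all tested genes. In metastasis livers 2 were called higher and 17 lower, against 6.78% and 3.95%, with a median of -0.43 against 0.04. Without TMM scaling the median of all genes itself moved to -0.25 and -0.23. The number called depended on the fit. DESeq2 called 6 higher and 15 lower of 100 in PMN (10% and 6.31% of all genes), and 7 and 28 in metastasis livers (11.5% and 8.03%). Scaled on the hepatocyte markers there were 0 and 2 in PMN (3.88% and 0.837% of all genes), and 3 and 5 in metastasis livers (5.65% and 1.81%). On log2(TPM + 1) there were 0 and 12 in PMN (3.04% and 5.47% of all genes), and 1 and 28 in metastasis livers (4.18% and 9.49%). With only the groups compared in the fit there were 12 and 42 in PMN (16.3% and 14.2% of all genes), but 1 and 2 in metastasis livers (1.75% and 0.734%). Without metastasis liver 1 the metastasis counts were 7 and 35 (9.58% and 6.93% of all genes), and without metastasis liver 2 they were 14 and 36 (17.3% and 15.4%). All 19 metastasis calls were kept in each of these last 2 fits. The genes were assigned to 7 lists, which are described here by their counts alone.

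Remethylation partners of Bhmt and Ahcy (10 tested) gave 0 calls in either comparison with edgeR. An unadjusted p under 0.05 was found for 2 in PMN and 0 in metastasis livers, against 27% and 30.2% of all tested genes. Among the other methyltransferases, 0 of 16 were called in PMN and 2 were lower in metastasis livers. Inmt, which methylates indole amines, had 702 and 468 CPM in sham, 49.2 and 57.1 CPM in PMN, and 1.66 and 28.6 CPM in metastasis livers, a metastasis change of -5.27 on the log2 scale (standard error 1.21, adjusted p = 0.0437 from edgeR), -4.35 without metastasis liver 1 and -8.46 without metastasis liver 2. All 4 livers of tumor-bearing mice were below both sham livers. Mettl7a1 had 419 and 415 CPM in sham and 60.3 and 145 CPM in metastasis livers (log2 fold change -2.02, adjusted p = 0.0313, and -2.79 without metastasis liver 2).

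Downstream of Cth, the cysteine and sulfur genes gave 1 of 10 lower in PMN and 3 lower in metastasis livers. Tst, a thiosulfate sulfurtransferase, fell in both groups, from 205 and 224 CPM in sham to 97.6 and 105 CPM in PMN and 114 and 108 CPM in metastasis livers (log2 fold change -1.08 and -0.95, adjusted p = 0.0281 and 0.0307). Mpst, which transfers sulfur from mercaptopyruvate, and Sqor, which oxidizes sulfide, were called lower in metastasis livers (-1.12 and -1.44, adjusted p = 0.0376 and 0.0496), Sqor at -2.06 without metastasis liver 2. Cdo1, the cysteine dioxygenase, and Got1, an aspartate aminotransferase, were high in metastasis liver 1, as Cth was, with 3977 and 2909 CPM. In sham livers they had 1124 and 1137 CPM (Cdo1) and 370.0 and 451 CPM (Got1). Neither was called in metastasis livers or in PMN (log2 fold change 0.22 and 0.81, adjusted p = 0.806 and 0.570 from edgeR). The list as a whole summed to 7251 CPM in metastasis liver 1 but 2235 CPM in metastasis liver 2, against 2185 and 2307 CPM in sham.

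Folate genes, which supply the methyl group for the other remethylation route, gave 1 of 22 lower in PMN, and 1 higher and 4 lower in metastasis livers. Shmt1, the cytosolic serine hydroxymethyltransferase, fell from 189.8 and 183 CPM in sham to 67.7 and 71.7 CPM in PMN and 54.8 and 85.2 CPM in metastasis livers (log2 fold change -1.42 and -1.41, adjusted p = 0.0306 and 0.0244). Mthfd2, a mitochondrial folate enzyme typical of proliferating cells, had 0.246 and 0.475 CPM in sham, 1.17 and 1.45 CPM in PMN and 5.57 and 5.47 CPM in metastasis livers, where it rose by 3.92 on the log2 scale (adjusted p = 0.00819), and by 1.95 on log2(TPM + 1). Mthfd1, Slc46a1 and Amt were called lower in metastasis livers, at log2 fold changes of -1.39, -1.38 and -1.69 (adjusted p = 0.0255, 0.0216 and 0.0400), Amt at -2.36 without metastasis liver 2.

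The choline and sarcosine list joins Pemt and Bhmt to Gnmt, because betaine derives from choline and sarcosine is the product of Gnmt. It gave 1 of 12 higher and 2 lower in PMN, and 1 higher and 4 lower in metastasis livers. Sardh, which oxidizes sarcosine, fell from 719.6 and 678 CPM in sham to 308 and 332 CPM in PMN and 217 and 189 CPM in metastasis livers (log2 fold change -1.13 and -1.79, adjusted p = 0.0295 and 0.00797). Pipox, a peroxisomal sarcosine oxidase, was lower by log2 fold changes of -0.93 and -1.38 (adjusted p = 0.0483 and 0.0156 from edgeR). The choline transporter-like gene Slc44a2 rose by 1.12 and 1.24 (adjusted p = 0.0429 and 0.0280 from edgeR). Of the 11 alternatives that omit no single liver, the PMN call was kept in 8 for Pipox and 6 for Slc44a2. Aldh7a1, which oxidizes betaine aldehyde, and Pcyt1a, of the alternative route to phosphatidylcholine, were called lower in metastasis livers (-1.25 and -0.90, adjusted p = 0.0156 and 0.0359).

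Of the salvage and polyamine genes, 0 of 15 were called in PMN. An unadjusted p under 0.05 was found for 7 of them in PMN, against 27% of all tested genes. In metastasis livers 1 was called lower, Paox (log2 fold change -1.19, adjusted p = 0.0254 from edgeR). Of 13 nicotinamide and NAD genes, 1 was lower in PMN and 3 in metastasis livers. Nmrk1, a nicotinamide riboside kinase, fell from 37.7 and 34.3 CPM in sham to 5.91 and 9.22 CPM in PMN and 8.22 and 11.5 CPM in metastasis livers (log2 fold change -2.25 and -1.86, adjusted p = 0.0148 and 0.0167). Aox3, an aldehyde oxidase, and Nadk2, the mitochondrial NAD kinase, were called lower in metastasis livers (-1.89 and -0.81, adjusted p = 0.0381 and 0.0498), Aox3 at -2.53 without metastasis liver 2. With either sham liver left out, no gene passed in any comparison. The loss of these 25 calls there does not single them out. With either PMN liver left out, 1 PMN liver remains and few genes passed in PMN, so the loss of the 6 PMN calls decides nothing. With metastasis and sham livers alone, 3 of the 19 metastasis calls were kept (Mthfd2, Nmrk1 and Sardh). In that fit 1.75% and 0.734% of all genes were called higher and lower. Scaled on the hepatocyte markers, 1 of the 6 (Nmrk1) and 7 of the 19 were kept. The log2 fold changes of all 25 kept their direction in each of the 17 alternative settings, those that lost the call included, such as Tst in PMN, at -1.02 when scaled on the hepatocyte markers (adjusted p = 0.0784 from edgeR).

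**Figure D5:**
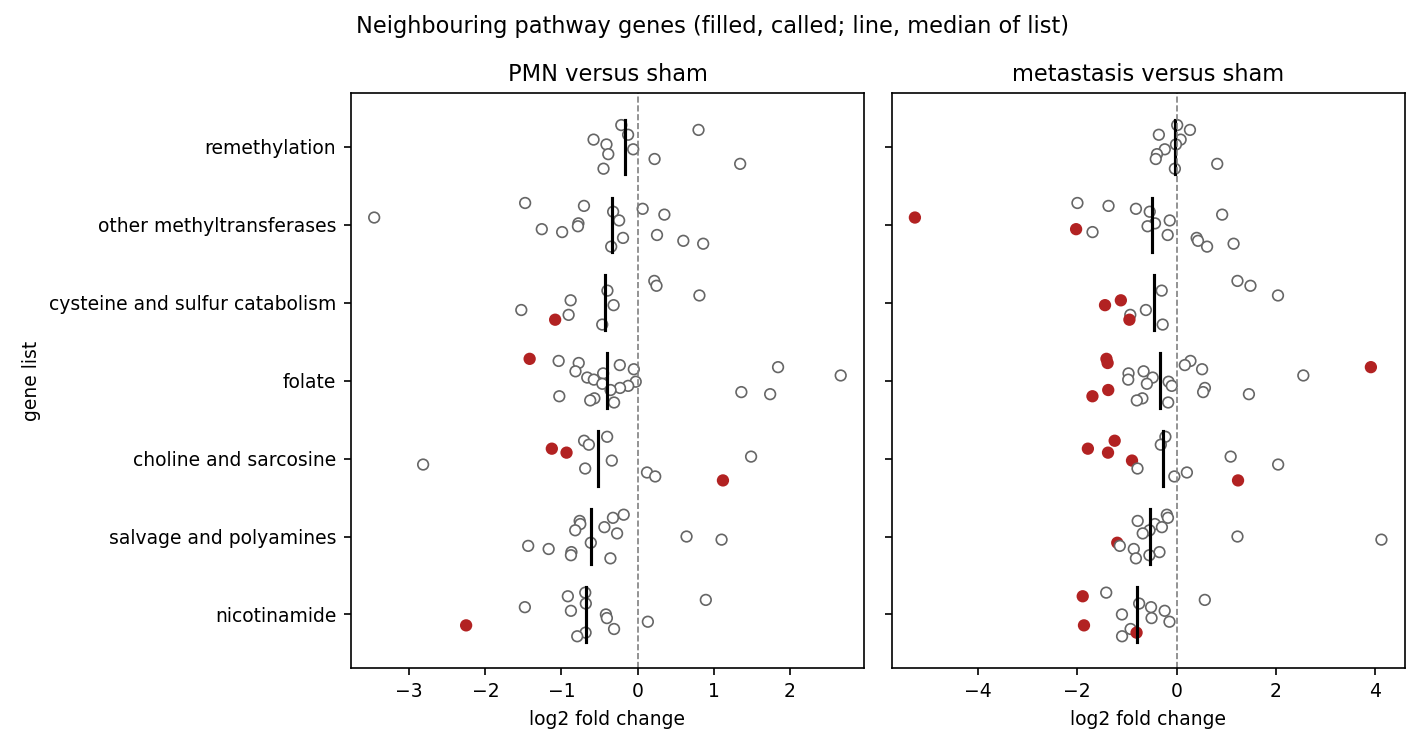
Log2 fold change of each tested gene of the 7 neighboring lists in PMN (left) and metastasis livers (right) against sham. Filled points have an adjusted p under 0.05 and black lines are list medians. Filled points lie mostly left of 0, with Slc44a2 to the right in both comparisons and Mthfd2 at 3.92 in metastasis.

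Markers of some other liver cells were also called higher than in sham. Of 15 neutrophil markers, 14 were called higher in PMN and 15 in metastasis livers, against 4.92% and 6.78% of all tested genes. Their summed level was 3.94 to 5.48 CPM in sham, 299.6 to 662 CPM in PMN and 443 to 1123 CPM in metastasis livers. Mpo, Elane, Camp, Cebpe and Padi4 had no counts in sham. Of 15 macrophage markers, 13 and 12 were called higher, with sums of 242 to 244 CPM, 1020.3 to 1259 CPM and 840.3 to 1310.3 CPM. Of 14 stellate cell and fibroblast markers, 1 and 5 were called higher, with sums of 375 to 392 CPM, 407 to 442 CPM and 524 to 565 CPM. Of 12 endothelial markers, 6 and 5 were called higher, with sums of 145 to 155 CPM, 378 to 400 CPM and 300 to 505 CPM. Their part in the change of Nnmt and the other members was not tested. Of 24 hepatocyte markers, 1 was called higher and 2 lower in PMN, and 2 and 2 in metastasis livers. Of all tested genes, 2.38% and 3.95% were called lower. An unadjusted p under 0.05 was found for 13 hepatocyte markers in PMN and 8 in metastasis livers, against 27% and 30.2% of all tested genes. Their median log2 fold change was 0.16 in both. The sum of the hepatocyte markers was 177173 to 181814 CPM in sham, 196811 to 250062 CPM in PMN and 239909 to 303839 CPM in metastasis livers. When the libraries were scaled on the hepatocyte markers, Nnmt remained called in PMN (log2 fold change 1.43, adjusted p = 0.0452). The 13 messenger RNAs of the mitochondrial genome took 5.60% and 5.34% of the counts in sham livers 1 and 2. They took 2.93% and 2.45% in PMN livers 1 and 2, and 5.62% and 3.02% in metastasis livers 1 and 2.

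The genes with the most similar pattern to each member over the 6 livers are given as a description, by Pearson's r of log2 CPM among 9274 genes at a mean of 5 CPM or more. For Mat1a they were Npat and Arhgap5 (r = 0.998 and 0.997), for Mat2a Casp8 and Sec24c (0.990 and 0.988), for Gnmt Adh5 and Wdr36 (0.997 and 0.992) and for Bhmt Rassf8 and Gm5096 (0.995 and 0.994). For Cbs they were Irak2 and Nbn (0.991 and 0.987), for Cth Akr1b7 and Sik2 (0.987 each), for Ahcy Sos1 and Map2k7 (0.994 each), for Pemt Mgmt and Pmf1 (0.996 and 0.994) and for Nnmt Dennd5a and Wdr7 (0.993 and 0.992). Gm5096 is the near-identical copy of Bhmt, and their reads cannot be told apart with certainty. The share of the genes compared with an r above 0.95 was between 0.151% (Mat2a) and 2.38% (Pemt), and all 6 livers share the 3 groups.

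Promoter sequences from RefSeq (GRCm38.p6, 250 bases before to 50 after a start site) were at hand for 6 of the 9 members, and their GC content ranged from 46.3% (Pemt) to 67.0% (Mat2a), with a median of 52.7% over 32851 promoters. Both strands were searched for TTCNNNGAA (STAT), TTGCNNAA (C/EBP), CAAAGTCCA (HNF4), TTAATNATT (HNF1), TGACNNNGC (NRF2), TGATGNAA (ATF4) and CACGTG (E-box). There were 2 matches, neither of which overlapped another motif. One was a STAT word in Pemt, which 8.30% of all promoters hold, and the other an E-box in Cbs, which 7.15% hold. These 2 promoters are shown, with the match in capitals, because they held a match (chr11:60040139-60040438 and chr17:31637156-31637455, both minus strand). Pemt and Cbs had lower levels in both PMN livers than in sham, but so had Gnmt, Bhmt and Ahcy, without a match.
Pemt: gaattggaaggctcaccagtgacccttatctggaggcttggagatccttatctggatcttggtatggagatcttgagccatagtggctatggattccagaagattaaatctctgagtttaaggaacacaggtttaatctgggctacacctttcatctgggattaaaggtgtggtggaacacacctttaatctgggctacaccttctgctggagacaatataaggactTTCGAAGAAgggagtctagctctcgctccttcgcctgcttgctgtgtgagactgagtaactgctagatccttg
Cbs: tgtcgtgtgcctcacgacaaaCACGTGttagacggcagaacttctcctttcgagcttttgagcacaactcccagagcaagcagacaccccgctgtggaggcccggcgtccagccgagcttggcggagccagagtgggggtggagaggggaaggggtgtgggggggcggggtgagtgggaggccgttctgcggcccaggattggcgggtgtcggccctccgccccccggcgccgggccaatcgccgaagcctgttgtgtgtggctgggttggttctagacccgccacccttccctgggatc
The STAT word begins 23 bases before this start site of Pemt and the E-box 229 bases before that of Cbs. A match is a run of letters and no measured binding. The table holds another Pemt window (chr11:60036956-60037255, minus strand, 51.7% GC), which held none of these words, nor did the windows of Mat2a, Gnmt, Bhmt and Ahcy.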

How the data were processed

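RNA from 6 mouse livers was sequenced, and the depth was 32838321 to 43368309 counts per liver. Alignment to mm10 was done by the authors with HISAT2 2.1.0, and uniquely aligned exonic reads were summed with featureCounts of Subread 2.0.6 and deposited as raw counts per gene. They also deposited TPM values, made from the counts and gene lengths. The annotation and strand setting are not given in the sources used here. Groups were compared in R 4.3.3 by edgeR (version 4.0.16, quasi-likelihood) after TMM scaling and filterByExpr with a minimum count of 10. The 6 livers shared 1 fit, and p-values were adjusted over 16370 genes by Benjamini-Hochberg. Procedures were tested on simulated data. The alternatives were DESeq2 1.42.0, limma 3.58.1 on log2(TPM + 1) and log2(TPM + 0.1), other filters and scalings, a block for the replicate number, fits of 2 groups alone, and fits that each omit 1 liver. The sum of Ahcy and Gm4737 was added after the data were seen. Sequences were compared with BLAST 2.17.0 and Biopython 1.88.

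The members, the 7 pathway lists and the 10 marker lists were chosen with earlier results of these data known. All members are named, every pathway gene that passed the test against sham, and for each member the 2 genes closest in r. Cdo1 and Got1, and the copies of members, were named after their values were seen. T and NK cell, B cell, cholangiocyte and intestinal epithelium markers gave 0 calls in PMN and 1, a cholangiocyte marker (Sox9), in metastasis livers. Endothelial markers gave 6 and 5 of 12 called higher, and proliferation genes 2 and 9 of 20 called higher and 1 lower in each. Over all tested genes, 4.92% and 6.78% were called higher and 2.38% and 3.95% lower.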

Additional observations from a re-analysis of the deposited data

How the results depend on the processing

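In PMN against sham, 1 of 9 members was called, 6 with only the 2 groups in the fit, and 0 with the replicate number as a block (Nnmt, log2 fold change 1.37), with library size without TMM, with TMM without the 100 most abundant genes (Nnmt, adjusted p = 0.0527), and on log2(TPM + 1) and log2(TPM + 0.1). Leaving out 1 liver gave 0 to 6. In metastasis against sham, 0 were called, 1 with DESeq2, and 0 to 6 with 1 liver left out, where the log2 fold change of Bhmt ran from -0.82 to 1.98. In metastasis against PMN livers 0 were called, and 0 to 3 with 1 liver left out. Over all genes the calls ranged from 0 to 4771, 0 to 5693 and 0 to 2884, and without either sham liver there were 0 in every comparison. Higher genes made up 67.4% and 63.2% of the calls against sham in PMN and metastasis livers, 41.5% and 42.9% without TMM, 82.3% and 75.8% scaled on hepatocyte markers, and 35.7% and 30.6% on log2(TPM + 1). Under the replicate block, the other scalings, DESeq2 and the TPM fits, the sign against sham changed in PMN for Mat2a (-0.21 to 0.12, -0.03 with the block) and Cth (0.00 to -0.35, -0.46 with the block), and for no member in metastasis livers. With 1 liver left out it changed for these 2 in PMN and for Bhmt, Cth and Cbs in metastasis livers. Over all genes the replicate numbers showed no sign of pairing, with correlations of the livers' deviations from the group means of -0.032, 0.0827 and 0.0428. With 2 livers per group these correlations cannot exclude a pairing that touches some genes.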
